A study of Mus musculus with 8 samples.

Results

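The genes described here encode the machinery that brings proteins into mitochondria: the TOM complex of the outer membrane, the TIM23 and TIM22 translocases of the inner membrane, the small Tim chaperones between the membranes, the PAM import motor and the peptidase that removes targeting sequences. They were chosen by name: every gene whose symbol starts with Tomm or Timm, together with Grpel1, Pam16, Dnajc19, Pmpca and Pmpcb, leaving out processed pseudogenes. The rule found 32 of the 55401 genes in the tables and used no measured value. All were read in AML12 cells, a hepatocyte line derived from mouse liver, whose RNA was sequenced after stranded, poly(A)-selecting library preparation. The 4 control dishes stood in another incubator of the same model with the stimulator off. The other 4 dishes were exposed for 1 h to Opti-ELF-WMF, a weak magnetic field with a peak of 100 mG delivered as 4 ms pulses whose frequency stepped from 1 to 8 Hz. Field and incubator therefore cannot be told apart in this comparison. AML12 is a single cell line, so the samples hold the same cells and do not stand for different animals. The labels number 4 samples in each condition. They are called dishes here, but the labels do not say that each came from its own dish or a separate culture. The paper states that control and exposed cells were prepared at the same time from the same batch of culture. The p-values therefore measure only the spread between these samples.

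Nearly all mitochondrial proteins are made in the cytosol and enter the organelle through this machinery. TOM receptors recognise the precursors and hand them to the Tom40 channel. Proteins with a cleavable presequence pass on to TIM23 and are pulled into the matrix by the PAM motor around mitochondrial Hsp70, where the processing peptidase cuts the presequence. Metabolite carriers and other hydrophobic proteins are escorted by small Tim chaperones to TIM22.

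The values are TPM, a measure of transcript abundance per base of transcript, in which reads are divided by transcript length and each sample is scaled to the same total, so that levels of different genes can be compared but sequencing depth is unknown. Between 19386 and 20114 genes were above 0 in each dish. Transcripts encoded in mitochondrial DNA held 8.69% to 9.42% of all TPM in control dishes and 5.99% to 7.69% in exposed dishes, so the groups did not overlap. TPM has a fixed total, so the shares of genes within a dish are not independent of each other, and values under other scalings are given beside the results. Of 10 hepatocyte markers, 7 reached 1 TPM in at least 4 dishes, among them Alb, Ttr and Hnf4a, while Apoa2, Fgb and Cps1 did not exceed 0.2 TPM in any dish. The keratins Krt8 and Krt18 and 3 of 4 bile duct markers were also present. Of 8 fibroblast and stellate cell markers and 4 endothelial markers, none reached that level, and the summed fibroblast list lay between 0.61 and 1.98 TPM in control dishes and between 0.67 and 1.38 TPM in exposed dishes. Of 5 macrophage and leukocyte markers, 1 reached it, Cd68, at 1.45 to 2.21 TPM in control dishes and 1.05 to 1.64 TPM in exposed dishes. In bulk RNA, fewer cells of a kind and less RNA per cell cannot be told apart.

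Promoter sequences are shown for the 6 import genes whose difference between conditions had the smallest p-values, so that a reader can see the DNA ahead of these genes. A pair of short motifs were looked for on both strands: TGCGCA, the core letters of the motif of NRF1, and CCGGAAG, the core letters of the ETS motif bound by GABP. Both factors are known for activating nuclear genes of mitochondrial proteins. The sequences are those of RefSeq on GRCm38.p6 and hold the 250 bases before the RefSeq start of the gene, read 5′ to 3′ on the strand of the gene, with each motif match in capitals. They lie at chr14:32201892-32202141 on the minus strand (Timm23), chr2:84826771-84827020 on the plus strand (Timm10), chr5:21736910-21737159 on the plus strand (Pmpcb), chr9:21592472-21592721 on the plus strand (Timm29), chr1:135313738-135313987 on the minus strand (Timm17a) and chr16:4624947-4625196 on the minus strand (Pam16).
Timm23: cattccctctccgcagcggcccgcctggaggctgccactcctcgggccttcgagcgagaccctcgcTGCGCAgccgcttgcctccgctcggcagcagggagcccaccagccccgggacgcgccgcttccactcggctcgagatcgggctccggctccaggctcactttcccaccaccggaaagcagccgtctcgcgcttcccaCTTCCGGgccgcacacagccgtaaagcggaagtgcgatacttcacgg
Timm10: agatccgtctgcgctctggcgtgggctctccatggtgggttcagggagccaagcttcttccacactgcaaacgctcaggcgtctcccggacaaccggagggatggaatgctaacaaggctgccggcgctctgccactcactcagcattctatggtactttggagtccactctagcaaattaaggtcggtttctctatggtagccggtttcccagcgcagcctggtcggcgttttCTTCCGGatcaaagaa
Pmpcb: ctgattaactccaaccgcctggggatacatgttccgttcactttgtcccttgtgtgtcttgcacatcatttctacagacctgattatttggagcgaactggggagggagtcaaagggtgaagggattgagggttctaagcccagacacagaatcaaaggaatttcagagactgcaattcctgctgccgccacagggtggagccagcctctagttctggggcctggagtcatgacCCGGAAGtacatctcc
Timm29: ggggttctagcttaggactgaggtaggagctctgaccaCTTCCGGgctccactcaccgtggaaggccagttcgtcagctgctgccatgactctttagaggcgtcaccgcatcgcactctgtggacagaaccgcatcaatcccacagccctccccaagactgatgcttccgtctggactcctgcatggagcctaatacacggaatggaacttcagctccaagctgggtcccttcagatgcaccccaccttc
Timm17a: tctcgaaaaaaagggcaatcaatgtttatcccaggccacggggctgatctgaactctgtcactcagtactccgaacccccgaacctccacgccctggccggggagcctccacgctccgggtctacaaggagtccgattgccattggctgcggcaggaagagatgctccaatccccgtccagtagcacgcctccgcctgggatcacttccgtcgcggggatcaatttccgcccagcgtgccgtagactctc
Pam16: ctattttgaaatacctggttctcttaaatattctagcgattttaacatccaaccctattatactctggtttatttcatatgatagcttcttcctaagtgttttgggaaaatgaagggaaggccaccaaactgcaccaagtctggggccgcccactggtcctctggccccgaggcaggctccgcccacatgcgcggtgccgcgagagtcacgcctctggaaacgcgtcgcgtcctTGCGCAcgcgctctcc

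Timm23 held both motifs, Timm10, Pmpcb and Timm29 held the ETS core, Pam16 held the NRF1 core, and Timm17a held neither in this stretch. In Timm10 and Pmpcb the ETS core began 16 bases before the RefSeq start of the gene, and in Pam16 the NRF1 core began at the same distance. GENCODE places the starts of these 3 genes farther upstream, so the same cores lie after the GENCODE start. RefSeq windows of 300 bases, which run from 250 bases before to 50 bases after the RefSeq start, were matched by symbol for 29 of the 32 import genes. The ETS core stood in the windows of 13 of these 29 genes (44.8%), beside 9.93% of all 27025 genes with a window. Among genes abundant enough to test, it stood in 12 of 26 import genes (46.2%), beside 22.0% of all 9067 such genes. The NRF1 core stood in 6 of the 29 genes (20.7%), beside 8.79% of all genes. Among the abundant genes it stood in 6 of 26 import genes (23.1%), beside 16.8% of all abundant genes. Among the receptors and channel subunits of the outer membrane, Tomm22 and Tomm70a held the ETS core and Tomm20 held the NRF1 core. The 2 motifs share no stretch that could be counted under both names. A match describes these letters only and is not evidence that a factor was bound.

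Of the 32 import genes, 29 passed the filter of at least 1 TPM in at least 4 dishes. Tomm20l, a gene resembling Tomm20, was listed at 0 in every dish. Timm8a2, a second Timm8a gene, was listed at 0 in 6 dishes and did not exceed 0.07 TPM. Tomm6os, an RNA antisense to Tomm6, lay between 0.05 and 0.22 TPM. The other 29 genes ranged in mean level over all dishes from 24.2 TPM for Timmdc1 to 243 TPM for Timm23, with a median of 56.5 TPM beside 21.9 TPM for all tested genes.

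In the outer membrane, the small subunit Tomm6 and the channel Tomm40 had the highest transcript levels, with means of 191 and 180 TPM over the 8 dishes. Tomm6 exceeded Tomm40 in 6 of 8 dishes, so their order was not the same in every dish. Tomm22, the receptor that organises the complex, followed at 130 TPM. Tomm5, a small subunit, at 109 TPM and the presequence receptor Tomm20 at 105 TPM changed places between dishes, Tomm5 being higher in 5 of 8. Tomm7, another small subunit, had a mean of 44.1 TPM, the carrier receptor Tomm70a 39.9 TPM and Tomm40l, a second form of the channel, 29.3 TPM. The order of these 3 genes was the same in all 8 dishes.

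In the inner membrane, Timm23, the channel subunit of the presequence translocase, was the most abundant import transcript in all 8 dishes. Its partner Timm17a had a mean of 159 TPM, and the alternative partner Timm17b 43.2 TPM. The receptor Timm50 lay between them at 90.7 TPM and Timm21, which links the channel to other complexes, at 51.6 TPM. The carrier channel Timm22 had 37.4 TPM and its subunit Timm29 28.4 TPM, with Timm22 higher in all 8 dishes. The transcripts of Tomm40, Timm23 and Timm17a were thus several times as abundant as that of Timm22, whereas Timm17b was close to it and Tomm40l below it.

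Among the small Tim chaperones the order Timm8b, Timm13, Timm8a1, Timm10b, Timm10 and Timm9 held in all 8 dishes, from a mean of 176 TPM for Timm8b to 38.7 TPM for Timm9. In the import motor, the J protein Dnajc19 had 56.3 TPM and Timm44, which tethers the motor to the channel, 50.8 TPM. The nucleotide exchange factor Grpel1 had 30.1 TPM, and Pam16, the J-like protein that pairs with the J protein, 26.2 TPM. The 2 subunits of the processing peptidase had nearly equal levels, 72.5 TPM for Pmpca and 65.6 TPM for the catalytic Pmpcb. Tomm34, a cytosolic cochaperone, had 33.4 TPM. Timmdc1, an assembly factor of respiratory complex I that carries a Timm symbol, had 24.2 TPM.

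**Figure D1:**
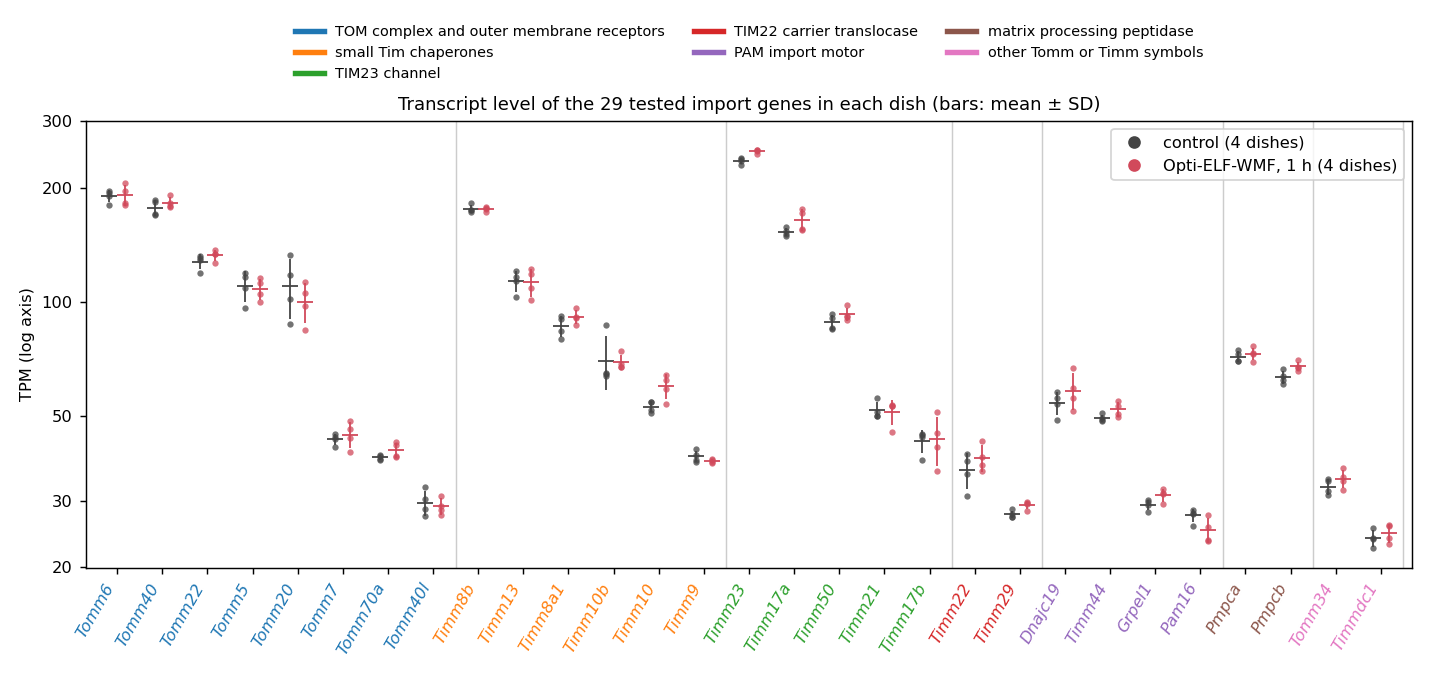
Transcript level (TPM, log axis) of the 29 tested import genes, grouped by role and ordered by level within a role. Each point is a dish, black for control and red for Opti-ELF-WMF, and bars give the mean ± SD of 4 dishes. Levels run from 24.2 TPM for Timmdc1 to 243 TPM for Timm23, and the points of both conditions overlap in all genes but Timm23.

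The comparison asks whether import transcripts differed after 1 h of Opti-ELF-WMF. The differences were small: on the log2 scale the mean of 20 import genes was higher in exposed dishes and that of 9 was lower, and in percent of mean TPM the genes ran from Tomm20, at -8.97%, to Timm10, at 13.0%. In limma, with p-values adjusted after Benjamini and Hochberg over 12122 genes, no import gene stood under 0.05 and no other gene did (0% called). Without adjustment, 1451 genes were higher and 443 lower at p under 0.05. The smallest adjusted p-value of an import gene was 0.142, for Timm23. At an unadjusted p-value under 0.05, 5 of 29 import genes were higher (Timm23, Timm10, Pmpcb, Timm29 and Timm17a), which is 17.2% beside 12.0% of all tested genes. By the same rule 1 of 29 was lower (Pam16), which is 3.45% beside 3.65% of all tested genes. Both shares lay near those of all genes. The count of higher genes rested on single dishes: it was 2 without control dish 4 or exposed dish 1, 3 without control dish 3 or exposed dish 2, and 7 at most, without exposed dish 4, while the share of all tested genes stayed between 8.79% and 13.4% whichever dish was left out. Pam16 passed this limit without control dish 1 or exposed dish 2, and no import gene was lower by this rule without any of the other 6 dishes. Across these omissions 2.72% to 4.23% of all tested genes were lower by the same rule. The median log2 fold change, taken on log2(TPM + 1), which understates the change of low genes, was 0.04 for import genes and 0.03 for all tested genes.

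Timm23 (ENSMUSG00000013701) spans chr14:32180162-32201898 on the minus strand in GENCODE M21 on GRCm38. Timm23 had 239.37, 238.85, 230.29 and 234.99 TPM in the control dishes and 251.67, 252.29, 250.67 and 245.63 TPM in the exposed dishes. Every exposed dish lay above every control dish. It was the only import gene, 1 of 29, whose groups did not overlap, beside 8.01% of all tested genes with all exposed dishes above and 1.86% with all below. Without control dish 1, 5 import genes had all exposed dishes above (10.7% of all tested genes) and 1, Pam16, had all below (4.03%). Without exposed dish 4, 4 import genes had all above (11.7%). The mean was 236 ± 4.20 TPM in control dishes and 250 ± 3.03 TPM in exposed dishes (SD, n = 4 each), a log2 fold change of 0.08 with a standard error of 0.02 and an adjusted p-value of 0.142 (limma). It also had the smallest spread among dishes of 1 condition of any import gene, a coefficient of variation of 1.51%. Under each of 3 other scalings the log2 fold change was 0.05. The groups still did not overlap when TPM was rescaled without mitochondria-encoded genes, as in 3.83% of all tested genes, but they overlapped after upper-quartile or median-of-ratios scaling, under which 3.37% and 3.80% of all tested genes had every exposed dish above the controls.

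Timm10 (ENSMUSG00000027076, chr2:84826997-84830213 on the plus strand) forms a chaperone with Timm9. It had 54.43, 51.15, 54.61 and 52.05 TPM in control dishes and 59.04, 62.45, 53.96 and 64.35 TPM in exposed dishes. Exposed dish 3 lay within the control range and the other 3 lay above it. The log2 fold change was 0.17 with a standard error of 0.05 and an adjusted p-value of 0.175 (limma), the largest fold change among the import genes. Under the 3 other scalings it was 0.14 with an unadjusted p-value between 0.0205 and 0.0217. Timm10 was the only import gene that was higher at an unadjusted p-value under 0.05 under all 4 scalings.

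Timm17a had 157.81, 154.25, 149.40 and 151.10 TPM in control dishes and 175.66, 172.07, 155.87 and 155.09 TPM in exposed dishes. Exposed dishes 1 and 2 stood well above the rest, while dishes 3 and 4 lay within the control range. Its log2 fold change was 0.10 with a standard error of 0.04 and an adjusted p-value of 0.303 (limma). Timm50 had 85.34, 90.67, 93.24 and 84.96 TPM in control dishes and 91.15, 98.10, 89.86 and 91.91 TPM in exposed dishes, so the groups overlapped (log2 fold change 0.07, unadjusted p-value 0.130). Timm17b lay between 38.47 and 44.82 TPM in control dishes and between 35.99 and 51.29 TPM in exposed dishes. Timm21 lay between 50.06 and 55.98 TPM and between 45.40 and 53.42 TPM, with log2 fold changes of 0.01 for Timm17b and -0.02 for Timm21. Of the 5 genes of the TIM23 channel, 4 had a higher mean, beside 63.7% of all tested genes. Their median log2 fold change was 0.07, beside 0.03 for all tested genes. Timm17b, among the higher genes, had a negative log2 fold change under the 3 other scalings.

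The TIM22 gene Timm22 had 39.89, 35.33, 30.83 and 38.05 TPM in control dishes and 39.16, 43.05, 37.15 and 35.80 TPM in exposed dishes. The groups overlapped, with 3 exposed dishes inside the control range (log2 fold change 0.11, standard error 0.08). Timm29 had 28.43, 27.17, 27.14 and 27.59 TPM in control dishes and 29.81, 29.62, 29.32 and 28.16 TPM in exposed dishes. Exposed dish 4 lay below control dish 1, and the other 3 exposed dishes lay above all control dishes. Its log2 fold change was 0.08 with a standard error of 0.03 and an adjusted p-value of 0.292 (limma).

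The peptidase subunit Pmpcb had 66.59, 63.70, 60.95 and 62.26 TPM in control dishes and 70.27, 65.76, 67.64 and 67.24 TPM in exposed dishes. Exposed dish 2 lay below control dish 1, so the groups overlapped by that pair. The log2 fold change was 0.09 with a standard error of 0.03 and an adjusted p-value of 0.230 (limma). Its partner Pmpca had 70.12, 69.77, 74.57 and 73.07 TPM in control dishes and 69.51, 76.46, 73.08 and 73.25 TPM in exposed dishes. These values overlapped throughout, and its log2 fold change of 0.02 became negative once TPM was scaled in any of the 3 other ways.

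In the import motor, Pam16 had 25.73, 27.71, 28.30 and 27.90 TPM in control dishes and 25.53, 27.50, 23.47 and 23.66 TPM in exposed dishes. Exposed dishes 3 and 4 stood well below all control dishes and dish 1 just below them, while dish 2 lay within the control range. The log2 fold change was -0.13 with a standard error of 0.06 and an adjusted p-value of 0.307 (limma), and it stayed negative, between -0.16 and -0.13, under all 4 scalings. The other 3 motor genes had higher means. Timm44 had 50.91, 48.80, 48.58 and 49.55 TPM in control dishes and 54.88, 53.15, 50.69 and 49.79 TPM in exposed dishes, with exposed dishes 3 and 4 inside the control range (log2 fold change 0.07, unadjusted p-value 0.0741). Grpel1 had 30.04, 29.75, 27.97 and 29.28 TPM in control dishes and 31.34, 32.17, 31.30 and 29.29 TPM in exposed dishes. Only exposed dish 4 of Grpel1 overlapped the controls (log2 fold change 0.08, unadjusted p-value 0.0683). Dnajc19 ranged from 48.99 to 57.92 TPM in control dishes and from 51.62 to 66.92 TPM in exposed dishes, with a log2 fold change of 0.10 and a standard error of 0.08.

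None of the 8 tested genes of the outer membrane had an unadjusted p-value under 0.05 (limma), beside 12.0% of all tested genes higher and 3.65% lower. With only 8 genes no result is read from this count. Their median log2 fold change was 0.02, beside 0.03 for all tested genes. Tomm20 had 133.21, 117.97, 87.80 and 101.59 TPM in control dishes and 84.41, 105.77, 97.62 and 113.26 TPM in exposed dishes. Its dishes varied more than those of any other tested import gene, with a coefficient of variation of 15.6% within a condition, and the mean difference of -0.13 on the log2 scale was no larger than its standard error of 0.13. Tomm22 had 130.42, 132.52, 119.18 and 129.04 TPM in control dishes and 134.07, 137.47, 133.63 and 126.53 TPM in exposed dishes. Tomm40 had 185.68, 183.60, 169.26 and 170.19 TPM in control dishes and 178.76, 191.89, 178.05 and 181.96 TPM in exposed dishes. For both genes the groups overlapped, with log2 fold changes of 0.06 and 0.04. Tomm70a had 39.63, 38.39, 38.67 and 39.28 TPM in control dishes and 39.18, 41.99, 42.68 and 39.20 TPM in exposed dishes. Exposed dishes 2 and 3 of Tomm70a stood above the controls and dishes 1 and 4 lay among them.

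Tomm40l had 27.29, 32.49, 30.19 and 28.49 TPM in control dishes and 30.88, 27.55, 28.38 and 29.11 TPM in exposed dishes. Tomm5 had 96.49, 119.44, 116.54 and 109.11 TPM in control dishes and 115.75, 99.87, 105.27 and 112.22 TPM in exposed dishes. In both genes all exposed dishes lay inside the control range, with log2 fold changes of -0.03 each. Tomm6 and Tomm7, which stabilise the complex, had log2 fold changes of 0.01 and 0.04, each smaller than its standard error. The 2 remaining genes, Tomm34 and Timmdc1, had log2 fold changes of 0.07 and 0.04.

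**Figure D2:**
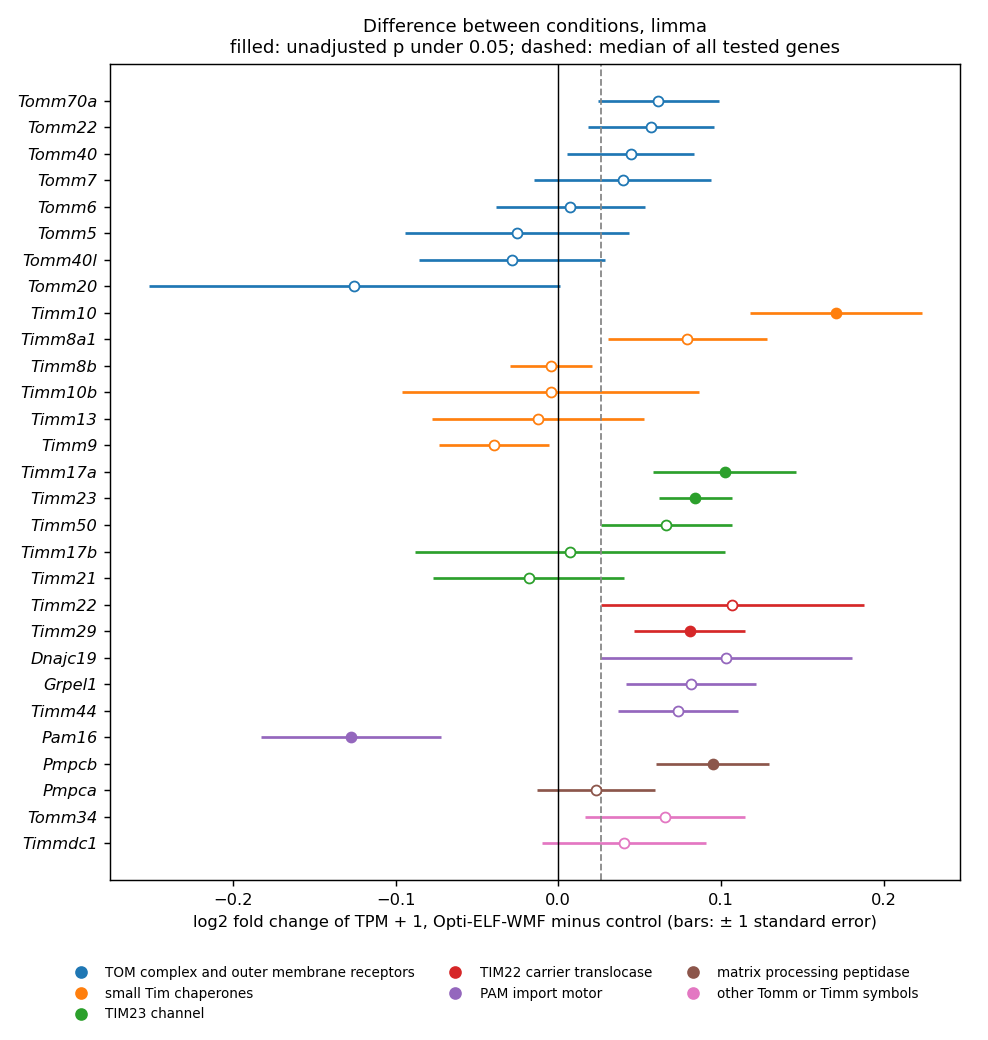
Log2 fold change of TPM + 1 between Opti-ELF-WMF and control dishes (horizontal axis, bars ± 1 standard error from limma) for each tested import gene, coloured by role. Filled points mark the 6 genes past the unadjusted limit of 0.05, of which Pam16 is the only lower gene, and the dashed line is the median of all tested genes at 0.03.

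Timm9 differed from its partner. It had 38.26, 38.00, 39.64 and 41.04 TPM in control dishes and 37.57, 38.68, 37.86 and 38.42 TPM in exposed dishes, and exposed dishes 2 and 4 overlapped the controls. Its log2 fold change was -0.04 (unadjusted p-value 0.267), and under the 3 other scalings, where it was -0.07, the exposed dishes all stood lower than the lowest control dish, as did 4.03%, 3.82% and 3.25% of all tested genes. The other small Tim genes had log2 fold changes of 0.08 for Timm8a1, -0.004 for Timm8b, -0.005 for Timm10b and -0.01 for Timm13. Of the 6 tested small Tim genes, 2 had a higher mean in exposed dishes, beside 63.7% of all tested genes.

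Ratios between partner transcripts within a dish do not move with the scaling of TPM apart from the added pseudocount, so 8 pairs of genes that work together or replace each other were tested with an exact, two-sided permutation of the dishes, which has 70 arrangements. The log2 ratio of Timm9 to Timm10, which together form the carrier chaperone, was -0.50, -0.42, -0.45 and -0.34 in control dishes and -0.64, -0.68, -0.50 and -0.73 in exposed dishes. All exposed dishes lay below all control dishes, although exposed dish 3 was close to control dish 1. The mean ratio was -0.43 ± 0.07 in control dishes and -0.64 ± 0.10 in exposed dishes (SD), a difference of -0.21 with a standard error of 0.06. Its exact permutation p-value of 0.0286 is the smallest that 4 dishes against 4 allow, and adjusted over the 8 pairs it was 0.229. With this design the adjustment could be passed only if at least 5 of the 8 pairs reached that smallest value.

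The ratio of Dnajc19 to Pam16, the J protein and its J-like partner, was 0.96 ± 0.15 in control dishes and 1.19 ± 0.17 in exposed dishes on the log2 scale (SD). The groups overlapped, and the exact permutation p-value was 0.114 (0.457 adjusted). Timm17a exceeded Timm17b 3.51-fold in control dishes and 3.75-fold in exposed dishes, and Tomm40 exceeded Tomm40l 5.83-fold and 6.13-fold, as geometric means of the ratio of TPM + 1. In neither of these pairs of alternative subunits did the ratio differ beyond the spread between dishes (exact permutation p-values 0.343 and 0.429). The ratios of Timm8a1 to Timm8b, Pmpca to Pmpcb, Timm8b to Timm13 and Tomm20 to Tomm70a had exact permutation p-values between 0.257 and 0.943.

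**Figure D3:**
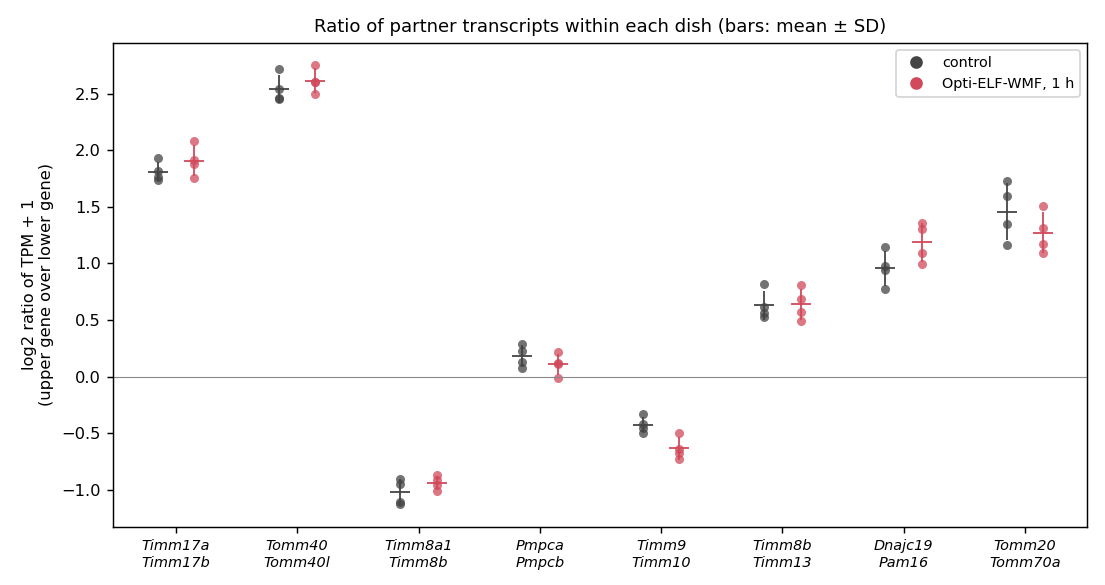
Log2 ratio of TPM + 1 for 8 pairs of import genes in each dish (vertical axis), with the first-named gene over the second, black for control and red for Opti-ELF-WMF, and bars for the mean ± SD of 4 dishes. The groups separate in the Timm9 to Timm10 pair, at -0.43 and -0.64, and overlap in the other 7.

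The typical level of the import genes varied between dishes within each condition. Compared with the control mean on the log2 scale, the median import gene was at 0.03, 0.008, -0.03 and 0.001 in the control dishes and at 0.07, 0.09, 0.02 and 0.008 in the exposed dishes. Exposed dishes 1 and 2 were highest, and exposed dishes 3 and 4 lay within the control range. The number of import genes above their control mean was 20, 16, 10 and 16 of 29 in control dishes and 23, 24, 19 and 16 of 29 in exposed dishes. For all tested genes the same median was 0.06 in exposed dish 2, the dish with the lowest share of mitochondria-encoded transcripts (5.99%), and 0.03 or less in the other 3 exposed dishes. Exposed dish 1, at 6.96%, had an all-gene median of -0.002. Whether the medians and that share are related was not tested.

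Scaling changed the split between higher and lower genes. Under upper-quartile, median-of-ratios and mitochondria-free scaling, 17 import genes (58.6%) had a higher mean and 12 a lower mean in each case, beside 47.0%, 49.2% and 49.1% of all tested genes with a higher mean, where deposited TPM gave 69.0% and 63.7%, and the median log2 fold change of import genes was 0.01, 0.02 and 0.01. The genes higher at an unadjusted p-value under 0.05 numbered 1, 1 and 2 instead of 5 (Timm10 in each, joined by Timm23 in the last), beside 4.85%, 5.55% and 5.72% of all tested genes. The lower genes numbered 2, 2 and 1 instead of 1 (Pam16 in each, joined by Timm9 in the first 2), beside 6.61%, 6.23% and 5.58% of all tested genes. On deposited TPM, the higher genes made up 76.6% of all those past the unadjusted limit, and under these scalings they made up 42.3%, 47.1% and 50.7%. The import median exceeded the median of all tested genes by 0.02 on the log2 scale under all 4.

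**Figure D4:**
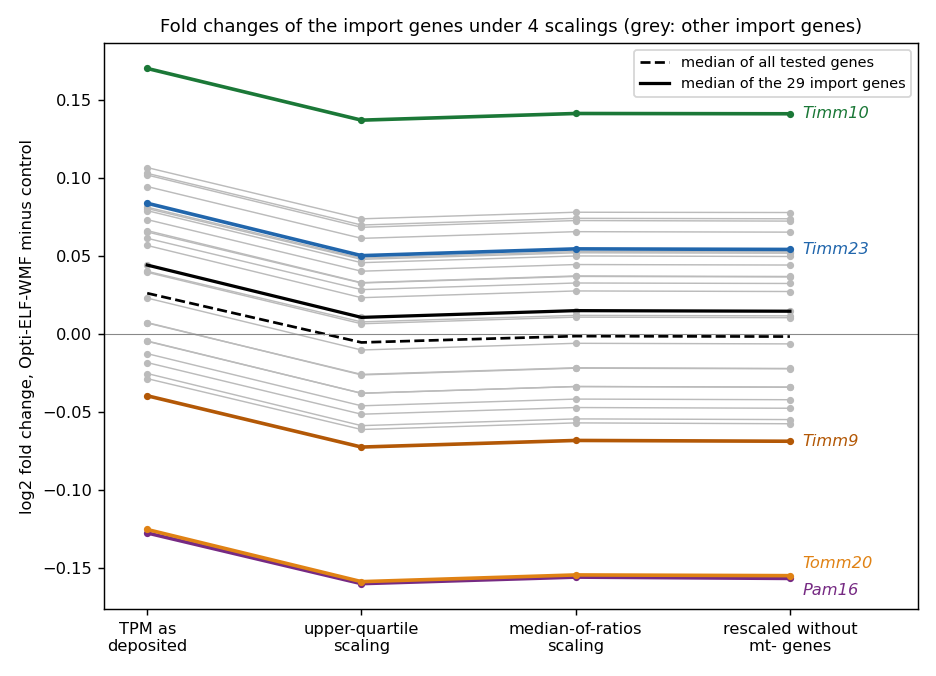
Log2 fold change of each tested import gene (vertical axis) with TPM as deposited and under 3 other scalings (horizontal axis), with 5 genes coloured and the others in grey. All lines shift down together by about the shift of the median of all tested genes (dashed), while the order of the genes does not change visibly and the import median (solid black) stays above the dashed line.

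Some import genes share sequence with other annotated genes, and their values rest in part on how reads of the shared stretches were divided. Timm10b, a chaperone bound to TIM22, overlaps Gm45799 on the same strand over 376 exonic bases, 10.5% of the exonic length of Timm10b. Gm45799 had a mean of 44.0 TPM, 63.1% of the level of Timm10b. Timm10b had 65.03, 87.11, 64.76 and 63.71 TPM in control dishes and 67.43, 74.19, 67.36 and 68.50 TPM in exposed dishes. Gm45799 had 47.73, 37.65, 52.52 and 41.88 TPM in control dishes and 55.24, 38.63, 34.69 and 43.66 TPM in exposed dishes. Dish 2 of each condition was high for Timm10b, and in control dishes it was the lowest for Gm45799. The sum of both genes was 115 ± 8.04 TPM in control dishes and 112 ± 8.42 TPM in exposed dishes (SD, n = 4 each).

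Timm8a1, which forms a chaperone with Timm13, is identical over 612 bases to the transcript Gm9797, which had 24.9 TPM, 28.0% of the level of Timm8a1. Timm8a1 had 86.5 ± 5.56 TPM in control dishes and 91.3 ± 3.89 TPM in exposed dishes (SD, n = 4 each). Summed with Gm9797 it had 106.04, 117.91, 106.52 and 106.86 TPM in control dishes and 122.11, 123.36, 112.04 and 115.71 TPM in exposed dishes. In the sum, only control dish 2 overlapped the exposed dishes. With all near-identical copies added to their genes, 6 import genes were higher at an unadjusted p-value under 0.05 instead of 5, beside 12.0% of all tested genes before the addition. In the other 5 genes with copies, Timm23, Tomm20, Pam16, Dnajc19 and Timm17a, the copies amounted to at most 2.16% of the gene. Exons of Pam16 also overlap Glis2 on the opposite strand over 18.7% of their length, and Glis2 had a mean of 31.5 TPM. Other import genes also overlap expressed genes of the opposite strand. Among them are Pmpca with Inpp5e (20.4% of exon length, Inpp5e at 14.9 TPM) and Timm8b with Nkapd1 (15.6%, 24.1 TPM). Grpel1 overlaps Tada2b (11.6%, 15.2 TPM) and Timm10b overlaps Arfip2 (7.73%, 68.5 TPM). The strand setting of the counting is not given in the sources used here, so reads of both genes in such stretches may not be separable.

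**Figure D5:**
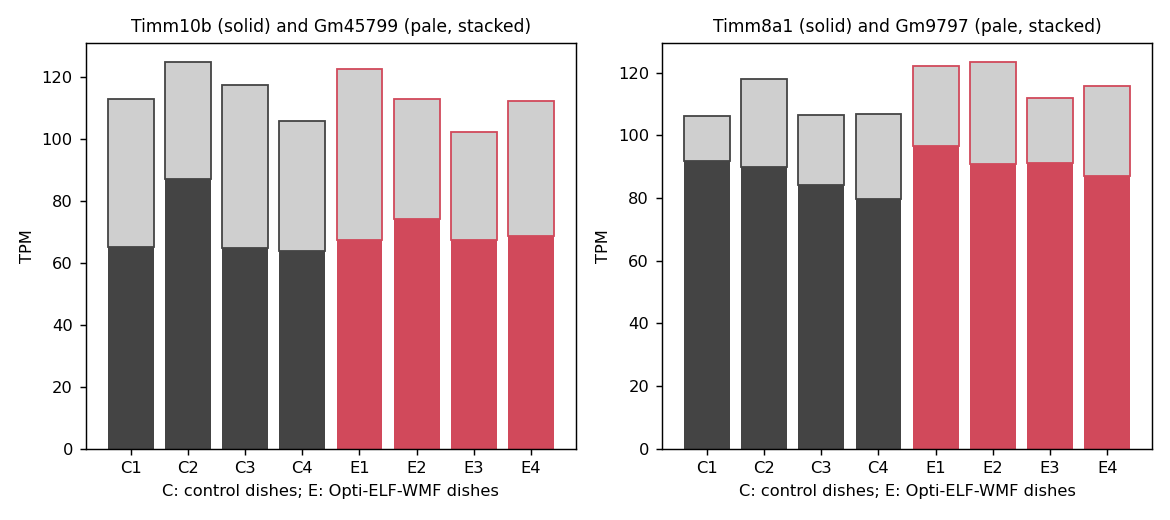
TPM in each dish (vertical axis, from 0) of Timm10b with Gm45799 stacked on it (left) and of Timm8a1 with Gm9797 stacked on it (right), C for control and E for Opti-ELF-WMF dishes. In control dish 2 the Timm10b part is highest, at 87.11 TPM, and the Gm45799 part lowest among control dishes, at 37.65 TPM.

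Genes that work with the import machinery but fall outside the naming rule were compared by the same fit. Of 25 such partners, 20 had a higher and 5 a lower mean, where 63.7% of all tested genes had a higher mean. At an unadjusted p-value under 0.05, 7 partners were higher (28.0%, beside 12.0% of all tested genes). The median log2 fold change of the partners was 0.03. The smallest p-values among the higher genes were those of Mtch1, an insertase of the outer membrane, Hspa9, the mitochondrial Hsp70 of the import motor, and Hspd1, the chaperonin that folds imported proteins. Mtch1 had 209 ± 2.73 TPM in control and 226 ± 5.24 TPM in exposed dishes (SD, n = 4 each), with an adjusted p-value of 0.122 (limma). Hspa9 had means of 456 and 488 TPM and Hspd1 of 746 and 797 TPM in control and exposed dishes, with adjusted p-values of 0.142 each. In these 3 genes and Hspa8, a cytosolic Hsp70, all exposed dishes lay above all control dishes, which makes 4 of 25 partners beside 8.01% of all tested genes. Under upper-quartile, median-of-ratios and mitochondria-free scaling this held for 1 of 25 partners each time, beside 3.37%, 3.80% and 3.83% of all tested genes. Among the lower genes the smallest p-values belonged to Mtx3, Dnajc15 and Immp1l, with log2 fold changes of -0.16, -0.13 and -0.08 and unadjusted p-values of 0.161, 0.339 and 0.454. For comparison, 62 of 78 mitochondrial ribosomal protein genes had a higher mean, with a median log2 fold change of 0.06, beside 63.7% of all tested genes. Under upper-quartile, median-of-ratios and mitochondria-free scaling the higher genes numbered 13, 15 and 15 of 25 partners and 46, 51 and 51 of 78 ribosomal protein genes, beside 47.0%, 49.2% and 49.1% of all tested genes. The partners higher at an unadjusted p-value under 0.05 then numbered 2, 2 and 3 of 25, beside 4.85%, 5.55% and 5.72% of all tested genes. The lower partners by this rule numbered 0 each time, beside 6.61%, 6.23% and 5.58% of all tested genes. Whether these groups differ from the import genes was not tested.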

How the data were processed

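Total RNA of AML12 cells was extracted and sequenced by the authors after TruSeq Stranded mRNA preparation, and 1 table of TPM per dish was deposited (4 control, 4 Opti-ELF-WMF). The submitters' processing notes name Trimmomatic 0.39, STAR 2.7.4a, RSEM 1.3.3 and mm10. The annotation release and strand setting are not given in the sources used here. TPM sums to the same total in every sample, so depth is unknown and no counting interval is given.

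The 12122 genes that reached 1 TPM in 4 or more samples were compared on log2(TPM + 1) with limma 3.58.1 (lmFit, eBayes with trend; R 4.3.3), and p-values were adjusted by the Benjamini-Hochberg method over all of them. Ratios of partner genes were compared by exact two-sided permutation and adjusted over 8 pairs. Positions came from GENCODE M21 on GRCm38 (55141 of 55401 identifiers matched) and promoters from RefSeq. A transcript counted as a near-identical copy where BLAST 2.17.0 aligned 80% or more of it, and no fewer than 200 bases, at 95% identity or more.

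All import genes are named. Values in every dish are given for the 5 higher and the 5 lower genes of smallest p and for main subunits of each complex, and 3 higher and 3 lower partners are named by the same order. The Timm10b and Timm8a1 sums, and the alternative that adds copies to their genes, were chosen after their values were seen. The members and lists were chosen with earlier results of these data known. Other settings tried were the filter, pseudocount, scaling, trend, a replicate block and the omission of each dish.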

Additional observations from a re-analysis of the deposited data

Results flagged for a closer look

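Within a condition, 4 of 74 groups of 4 dishes held a dish far from the other 3, beside about 3.7 that chance alone gives at 1 in 20. Timm10b was at 87.11 TPM in control dish 2, while the other control dishes lay between 63.71 and 65.03 TPM. Timm10b was also at 74.19 TPM in Opti-ELF-WMF dish 2, beside 67.36 to 68.50 TPM in the other exposed dishes. The gene that overlaps it on the same strand, Gm45799, had 37.65 and 38.63 TPM in these 2 dishes, and the part of shared reads in the difference was not tested. Timm17b was at 38.47 TPM in control dish 3, beside 44.09 to 44.82 TPM in the other control dishes. Timm21 was at 45.40 TPM in Opti-ELF-WMF dish 3, beside 53.12 to 53.42 TPM in the other exposed dishes.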

How the results depend on the processing

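The number of import genes with an adjusted p-value under 0.05 was 0 in all 18 other settings, and the smallest adjusted p-value of any import gene in any of them was 0.136. Over all tested genes that number was 1 with a filter of 1 TPM in every sample, with upper-quartile scaling, with median-of-ratios scaling and with limma without the trend, and 0 to 2 when 1 dish was left out. Import genes higher at an unadjusted p-value under 0.05 (limma) numbered 1 with upper-quartile or median-of-ratios scaling, beside 4.85% and 5.55% of all tested genes. They numbered 2 with TPM rescaled without mitochondria-encoded genes (5.72% of all tested genes). When 1 dish was left out they numbered 2 to 7, beside 8.79% to 13.4%. Lower import genes by this rule numbered 2 with upper-quartile or median-of-ratios scaling, beside 6.61% and 6.23% of all tested genes. When 1 dish was left out they numbered 0 to 1, beside 2.72% to 4.23% of all tested genes. With limma without the trend they numbered 0, where the share of all tested genes was not taken, so no result is read from that count. Import genes whose groups did not overlap numbered 2 with TPM rescaled without mitochondria-encoded genes. These were Timm23, above as in 3.83% of all tested genes, and Timm9, below as in 3.25%. When 1 dish was left out they numbered 1 to 6, beside 9.06% to 13.4% of all tested genes above and 2.48% to 4.03% below. Without the 3 genes of widest spread (Tomm20, Timm10b and Timm17b), an alternative added after seeing the data, the median log2 fold change of import genes was 0.06, and when 1 dish was left out it lay between 0.02 and 0.07.

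Of 29 import genes, 20 kept the sign of their log2 fold change in every setting. The sign turned with upper-quartile, median-of-ratios and mitochondria-free scaling for Pmpca (-0.010, -0.0059 and -0.0062), Timm17b (-0.026, -0.022 and -0.022) and Tomm6 (-0.026, -0.022 and -0.022). When 1 dish was left out the log2 fold change crossed 0 for Timm10b (-0.046 to 0.10), Timm13 (-0.057 to 0.039), Timm17b (-0.074 to 0.092), Timm21 (-0.039 to 0.038), Timm8b (-0.014 to 0.013), Tomm40l (-0.066 to 0.016), Tomm5 (-0.088 to 0.014) and Tomm6 (-0.029 to 0.034), and so did the difference in the log2 ratio of Timm8b to Timm13 (-0.049 to 0.069). The difference in the Timm9 to Timm10 log2 ratio lay between -0.26 and -0.18 when 1 dish was left out. Causes of these shifts were not tested.

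With the replicate number as a block, 0 of all tested genes and 0 import genes had an adjusted p-value under 0.05 (limma). At an unadjusted p-value under 0.05, 5 import genes were higher and 0 lower in that setting. The share of all tested genes was not taken there, so no result is read from these counts. Dishes sharing a number did not deviate together (correlations of -0.03, -0.04, 0.0004 and 0.03), and no dish correlated best with its own number, so the numbers were not taken to pair the dishes. With the numbers paired, the smallest exact p-value for a ratio is 0.125.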
